A study of Mus musculus with 6 samples.

Results

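The 48 genes described here encode proteins of the synapse. They were taken by symbol from a list of synaptic vesicle and postsynaptic scaffold genes, and all 48 were found among the 37411 gene rows of the count table. The presynaptic set has 28 genes (synapsins, the synaptophysin family, synaptotagmins, SV2 glycoproteins, SNARE proteins and complexins, active zone proteins and neurexins). The postsynaptic set has 20 genes (neuroligins, the PSD-95, Dlgap, Shank and Homer scaffolds, CaMKII, neurogranin and gephyrin). All 48 passed the filter on low counts that left 16233 tested genes. RNA came from primary hippocampal neurons of CD-1 IGS mouse pups, taken at P0 and kept 16 days in vitro. Libraries 1, 2 and 3 were from cultures given DMSO, the solvent, and libraries 4, 5 and 6 from cultures given 50 µM forskolin, a plant compound that activates adenylyl cyclase and so raises cyclic AMP. Treatment lasted 30 min in both groups. The sources do not say whether the libraries of a group came from separate dissections or pooled pups, so p-values measure the spread between these libraries, which may be technical.

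Transmitter release needs vesicles filled and docked at the active zone, primed by Munc13 and RIM proteins, and fused with the membrane by the SNARE proteins when synaptotagmin binds calcium. On the other side of the cleft, neuroligins bind presynaptic neurexins, and PSD-95 family, Dlgap, Shank and Homer proteins are stacked into a scaffold that holds glutamate receptors; gephyrin does the same for inhibitory receptors. Cyclic AMP acts on this machinery through protein kinase A, which phosphorylates synapsins and RIM proteins among others, and through CREB, which binds cyclic AMP response elements (CRE) in promoters.

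Total counts were 28342764 to 35304310 in the DMSO libraries and 34139191 to 47548379 in the forskolin libraries. The neuron markers Rbfox3, Map2 and Tubb3 were present in every library, at 69.2 to 84.5, 902 to 1347 and 382 to 472 CPM (counts scaled to equal library size by TMM factors) with DMSO. With forskolin they were at 37.8, 42.8 and 47.2 CPM (Rbfox3), 877 to 1279 CPM (Map2) and 225, 202 and 284 CPM (Tubb3), so that Rbfox3 and Tubb3 lay below every control in library 6 too. Library 6 nonetheless stood apart from the other forskolin libraries. The 16 listed neuron markers summed to 3536 to 4371 CPM with DMSO, to 2500.4 and 2793 CPM in libraries 4 and 5, and to 3934 CPM in library 6. The 12 microglia markers, of which 11 were tested and none was at 0 in any library, summed to 25.2 to 37.8 CPM with DMSO, to 253 and 426 CPM in libraries 4 and 5, and to 27.6 CPM in library 6. The part of this difference in cell markers in the results below was not tested. In bulk RNA, fewer neurons and less RNA of a gene per neuron cannot be told apart.

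With forskolin, 7 of the 48 synaptic genes fell and none rose (edgeR, adjusted p under 0.05 over all tested genes). Over all tested genes 1.34% were lower and 0.172% higher by the same rule. The 7 genes were Bsn and Nrxn2 on the presynaptic side, and Dlgap3, Dlgap4, Shank1, Shank3 and Nrgn on the postsynaptic side. Their fitted levels were 1.74 to 2.62-fold lower with forskolin. By fitted fold change alone, 41 of the 48 lay lower and 7 higher, with a median log2 fold change of -0.40 against 0.02 over all tested genes. At an unadjusted p under 0.05, 19 were lower (11.7% of all tested genes) and 1 higher (10.6%). Which libraries were used decided these counts: without library 6, edgeR put 34 of the 48 lower and 1 higher (17.1 and 16.5% of tested genes), and without any other single library it called none, with 11 to 15 members at an unadjusted p under 0.05. DESeq2 on all 6 libraries put 12 lower and 0 higher (6.03 and 4.90% of tested genes), and limma-voom with quality weights, which weight each library by its fit, put 34 lower and 2 higher (20.9 and 21.0%).

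**Figure D1:**
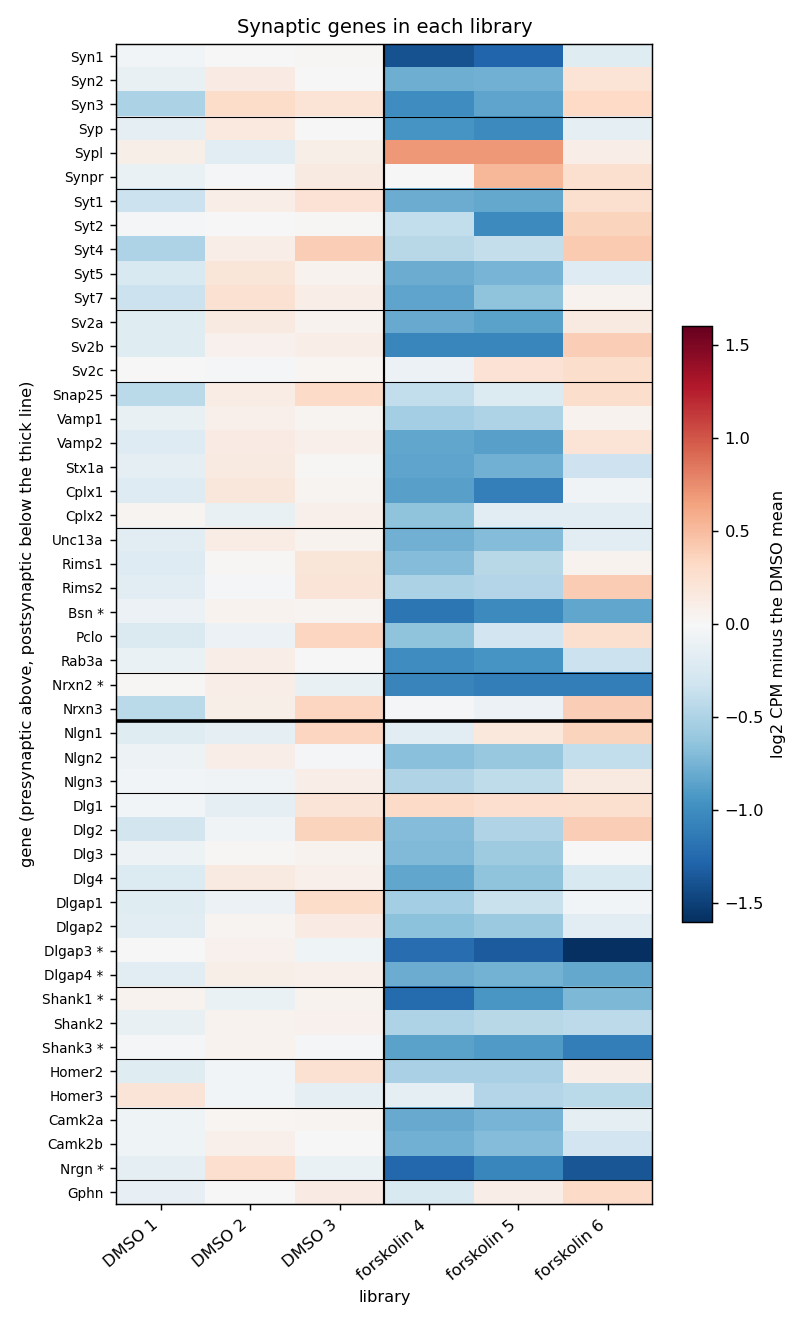
Each row is one of the 48 genes, grouped by role, and each column one library; colour gives log2 CPM minus the mean of the 3 DMSO libraries, from blue (lower) to red (higher), and an asterisk marks the 7 genes with an adjusted p under 0.05. Most rows are blue in libraries 4 and 5, and the marked rows are blue in library 6 as well.

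Among the synapsins, which coat vesicles and tie them to the cytoskeleton, no gene passed the threshold. Syn1 had 104, 108 and 109 CPM with DMSO (libraries 1, 2 and 3, in this order throughout), and 40.7, 44.3 and 93.6 CPM with forskolin (libraries 4, 5 and 6), with the group difference uncertain (log2 fold change -0.85 ± 0.32 (SE), edgeR adjusted p = 0.190). Libraries 4 and 5 were far below the DMSO libraries and library 6 just below them. Syn2 had 607, 719.8 and 655 CPM with DMSO, and 385, 386 and 766 CPM with forskolin (log2 fold change -0.37 ± 0.29 (SE), edgeR adjusted p = 0.475). Here library 6 was the highest of all 6 libraries, so the groups overlapped. Syn3, at 2.40 to 4.23 CPM with DMSO the least abundant member, showed the same order of libraries. Without library 6, Syn1 (log2 fold change -1.35 ± 0.09 (SE), adjusted p = 0.00176), Syn2 (-0.79, adjusted p = 0.00488) and Syn3 (-1.005, adjusted p = 0.0465) were all past the threshold in edgeR.

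Syn1 was the only member with a full CRE in the bases before its start. RefSeq promoters (GRCm38.p6) were matched for 35 of the 48 members, and the 250 bases before each start were searched on both strands for the full CRE, TGACGTCA, for its short core TGACG, which the full CRE holds in both orientations, and for TTCAGCACC, a core of the RE1 element bound by REST, the repressor of neuronal genes in other cells. The full CRE lay in 1.55% of 32851 promoters, the short core in 17.8% and the RE1 core in 0.301%. The 57 promoters of the members held the full CRE in 1, the short core in 8 (those of Syn1, Sypl, Syt2, Stx1a, Unc13a, Rab3a, Dlg3 and Dlg4) and the RE1 core in 2 (Syn1 and Nlgn1). The promoters of Syn1, which holds the full CRE and the RE1 core, and of Unc13a, which holds the short core at 2 places, are shown from their upstream end to the base before the start, with the matched letters in capitals. They lie at chrX:20920919-20921168 and chr8:71671758-71672007, both on the minus strand.
Syn1: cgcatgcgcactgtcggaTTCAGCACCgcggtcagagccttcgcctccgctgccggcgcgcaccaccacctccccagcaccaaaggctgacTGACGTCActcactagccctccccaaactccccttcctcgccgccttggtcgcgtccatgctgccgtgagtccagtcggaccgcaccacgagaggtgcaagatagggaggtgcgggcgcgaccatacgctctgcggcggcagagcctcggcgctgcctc
Unc13a: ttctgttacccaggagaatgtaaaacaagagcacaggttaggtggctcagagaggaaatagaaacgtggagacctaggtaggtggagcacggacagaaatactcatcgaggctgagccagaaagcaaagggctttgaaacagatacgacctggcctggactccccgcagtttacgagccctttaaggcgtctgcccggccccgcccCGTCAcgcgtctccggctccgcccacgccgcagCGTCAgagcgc
Neither gene was higher with forskolin in any of the 3 treated libraries. Of the 8 members with the short core, only Sypl had a positive fitted fold change, where 7 of all 48 members and 8408 of the 16233 tested genes did. A match of letters is a description and does not show a bound site.

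The synaptophysin family spans the vesicle membrane, and its fitted changes differed in sign. Syp, which encodes synaptophysin itself, had 559, 689 and 618 CPM with DMSO, and 320.4, 305 and 557 CPM with forskolin (log2 fold change -0.66 ± 0.26 (SE), edgeR adjusted p = 0.201). Sypl, whose product is also found in cells that are not neurons, had 12.1, 10.04 and 12.1 CPM with DMSO, and 18.4, 18.5 and 12.2 CPM with forskolin (log2 fold change 0.52 ± 0.20 (SE), edgeR adjusted p = 0.203). Libraries 4 and 5 were well above the DMSO libraries for Sypl, and library 6 was level with them. Without library 6, Sypl was the only member called higher (edgeR adjusted p = 0.0130). With the trend on GC content removed, as described below, its log2 fold change was -0.00013 on all 6 libraries. Without library 6 it was then 0.08 (edgeR adjusted p = 0.727). The cause of the rise was not tested. Synpr, or synaptoporin, had a log2 fold change of 0.27 with overlapping groups (edgeR adjusted p = 0.331).

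Several synaptotagmins bind calcium and trigger fusion, among them Syt1 and Syt2 as fast sensors and Syt7 as a slower one. None of the 5 synaptotagmins listed here passed the threshold, and their fitted log2 fold changes ran from -0.57 to -0.12. Syt5 had 79.8, 107 and 97.5 CPM with DMSO, and 54.3, 56.2 and 81.4 CPM with forskolin (log2 fold change -0.57 ± 0.20 (SE), edgeR adjusted p = 0.172). Syt4, an isoform of dense-core and postsynaptic vesicles, had 46.4, 71.1 and 86.4 CPM with DMSO, and 48.2, 50.7 and 88.3 CPM with forskolin (edgeR adjusted p = 0.834). The 2 groups of Syt4 covered almost the same range, and library 1 was the lowest of all. Syt1 showed the contrast among the treated libraries, with 402 and 396 CPM in libraries 4 and 5 and 839 CPM in library 6, against 553 to 822 CPM with DMSO.

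Of the SV2 glycoproteins, vesicle transporter-like proteins, Sv2a had 264, 333 and 314 CPM with DMSO, and 172, 167 and 332 CPM with forskolin (log2 fold change -0.44 ± 0.29 (SE), edgeR adjusted p = 0.388). Sv2b had 259.7 and 257 CPM in libraries 4 and 5 and 699 CPM in library 6, a range that encloses its DMSO values of 468 to 575 CPM. Sv2c differed from both: it had 25.3, 25.3 and 26.1 CPM with DMSO, and 23.8, 29.9 and 31.0 CPM with forskolin (log2 fold change 0.14 ± 0.13 (SE), edgeR adjusted p = 0.544).

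Among the 6 genes of the SNARE machinery, none passed the threshold. Stx1a, the plasma membrane SNARE syntaxin, had 74.4, 91.1 and 83.8 CPM with DMSO, and 46.4, 48.6 and 65.8 CPM with forskolin (log2 fold change -0.63 ± 0.16 (SE), edgeR adjusted p = 0.115). All 3 forskolin libraries lay below the DMSO libraries, and DESeq2 called the gene (adjusted p = 0.0290). Snap25, its membrane partner, had 371, 542 and 620.2 CPM with DMSO, and 379.6, 430.1 and 607 CPM with forskolin (log2 fold change -0.11 ± 0.26 (SE), edgeR adjusted p = 0.814), so that its groups covered almost the same range. The vesicle SNARE gene Vamp2 was at 65.4 and 63.6 CPM in libraries 4 and 5 and at 135 CPM in library 6, with 100.5 to 127 CPM under DMSO. Vamp1, Cplx1 and Cplx2 had log2 fold changes of -0.30, -0.62 and -0.32, with edgeR adjusted p-values from 0.251 to 0.355.

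The active zone held the first gene past the threshold. Bsn encodes Bassoon, one of the very large proteins that order the release site. It had 299, 329.8 and 328 CPM with DMSO, and 143, 158 and 179.5 CPM with forskolin. Every treated library was far below every control, library 6 included, and the gene fell 1.996-fold (log2 fold change -0.997 ± 0.13 (SE), edgeR adjusted p = 0.0314). Its relative Pclo, or Piccolo, had 115, 125 and 170.2 CPM with DMSO, and 86.5, 109 and 162 CPM with forskolin, with overlapping groups (log2 fold change -0.20, edgeR adjusted p = 0.671). Rims2, a RIM scaffold, had 39.0, 42.9 and 50.4 CPM with DMSO, and 30.9, 31.7 and 58.1 CPM with forskolin (log2 fold change -0.13, edgeR adjusted p = 0.786). Rab3a, the vesicle GTPase, and Unc13a, the priming factor Munc13-1, lay below the DMSO libraries in all 3 forskolin libraries, with log2 fold changes of -0.73 and -0.53 (edgeR adjusted p = 0.126 and 0.179). Rims1 had a fitted log2 change of -0.33 (edgeR adjusted p = 0.382).

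The neurexins, presynaptic adhesion proteins, split. Nrxn2 had 370.3, 393 and 335 CPM with DMSO, and 176, 169.5 and 169 CPM with forskolin. The treated libraries were within a few CPM of each other, and the gene fell 2.14-fold (log2 fold change -1.10 ± 0.12 (SE), edgeR adjusted p = 0.0232). Nrxn3 had 43.4, 62.4 and 74.1 CPM with DMSO, and 57.5, 54.7 and 76.7 CPM with forskolin, so that the groups overlapped, with library 6 the highest of all (log2 fold change 0.07 ± 0.22 (SE), edgeR adjusted p = 0.876).

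On the postsynaptic side, the neuroligins bind neurexins across the cleft. Nlgn2, the isoform of inhibitory synapses, had 169, 192 and 177 CPM with DMSO, and 113, 117 and 137 CPM with forskolin (log2 fold change -0.55 ± 0.12 (SE), edgeR adjusted p = 0.0871). The groups did not overlap, and DESeq2 called the gene (adjusted p = 0.00709). With the trend on GC content removed, as described below, the log2 fold change of Nlgn2 was 0.03 (edgeR adjusted p = 0.953). Nlgn1, the isoform of excitatory synapses, had 98.3, 101 and 142 CPM with DMSO, and 99.5, 126 and 143 CPM with forskolin, which overlap (log2 fold change 0.11 ± 0.20 (SE), edgeR adjusted p = 0.766). Nlgn3 had a fitted log2 change of -0.22 (edgeR adjusted p = 0.487).

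The PSD-95 family anchors receptors and channels, and none of its 4 genes passed the threshold. Dlg4, which encodes PSD-95 itself, had 311, 399 and 384 CPM with DMSO, and 204, 233 and 305 CPM with forskolin (log2 fold change -0.56 ± 0.19 (SE), edgeR adjusted p = 0.169). Dlg1, which encodes SAP97, was the only postsynaptic member whose treated libraries all lay above the controls, with 68.7, 64.3 and 81.8 CPM (DMSO) and 87.5, 86.2 and 85.2 CPM (forskolin) (log2 fold change 0.27 ± 0.12 (SE), edgeR adjusted p = 0.242). Dlg2 and Dlg3 had log2 fold changes of -0.21 and -0.39 (edgeR adjusted p = 0.714 and 0.295).

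The Dlgap proteins link the PSD-95 family to Shank, and of their 4 genes 2 fell. Dlgap3 had 164, 172 and 156 CPM with DMSO, and 70.1, 65.3 and 52.2 CPM with forskolin. This was the largest change among the 48 genes, a 2.62-fold fall with library 6 the lowest (log2 fold change -1.39 ± 0.14 (SE), edgeR adjusted p = 0.0216). Dlgap4 had 115, 138 and 136 CPM with DMSO, and 74.7, 76.0 and 73.0 CPM with forskolin, a 1.74-fold fall (log2 fold change -0.80 ± 0.11 (SE), edgeR adjusted p = 0.0371). Dlgap1 had 202, 219 and 285 CPM with DMSO, and 159, 181 and 225 CPM with forskolin (log2 fold change -0.32 ± 0.19 (SE), edgeR adjusted p = 0.351). Library 6 lay above DMSO libraries 1 and 2 for Dlgap1, unlike Dlgap3 and Dlgap4. Dlgap2 had non-overlapping groups and a fitted log2 change of -0.47 (edgeR adjusted p = 0.171).

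Shank proteins form the deep layer of the postsynaptic scaffold. Shank1 had 62.0, 54.96 and 61.6 CPM with DMSO, and 25.3, 31.3 and 36.1 CPM with forskolin, a 1.93-fold fall (log2 fold change -0.95 ± 0.15 (SE), edgeR adjusted p = 0.0417). Shank3 had 145, 153 and 145 CPM with DMSO, and 81.2, 78.6 and 68.3 CPM with forskolin, a 1.94-fold fall (log2 fold change -0.96 ± 0.11 (SE), edgeR adjusted p = 0.0276). Shank2 had 121, 137 and 138 CPM with DMSO, and 93.2, 96.1 and 98.6 CPM with forskolin (log2 fold change -0.46 ± 0.11 (SE), edgeR adjusted p = 0.0911). All 3 Shank genes thus had all forskolin libraries below all DMSO libraries, as 16.2% of tested genes did, and library 6 was low with libraries 4 and 5 in each. With RLE or upper-quartile factors in place of TMM, edgeR called 6 members lower (0.696 and 0.511% of tested genes) and not Shank1.

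Homer proteins bind Shank, and neither of the 2 measured here passed the threshold. Homer2 had 44.5, 49.7 and 60.5 CPM with DMSO, and 35.7, 35.6 and 55.01 CPM with forskolin (edgeR adjusted p = 0.430). Homer3 had 20.5, 17.4 and 16.0 CPM with DMSO, and 16.2, 12.9 and 13.2 CPM with forskolin (log2 fold change -0.35 ± 0.16 (SE), edgeR adjusted p = 0.261). Both overlapped between the groups. Gphn, which encodes gephyrin of inhibitory synapses, had 77.8, 85.4 and 93.1 CPM with DMSO, and 71.7, 91.7 and 105 CPM with forskolin (log2 fold change 0.07 ± 0.16 (SE), edgeR adjusted p = 0.832).

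Nrgn encodes neurogranin, a small postsynaptic protein that binds calmodulin, the calcium sensor that activates CaMKII. It had 109, 146 and 113 CPM with DMSO, and 50.7, 59.1 and 47.1 CPM with forskolin, a 2.35-fold fall (log2 fold change -1.23 ± 0.16 (SE), edgeR adjusted p = 0.0306). Camk2a had 483, 519.7 and 524 CPM with DMSO, and 290.0, 304 and 456 CPM with forskolin (log2 fold change -0.54 ± 0.20 (SE), edgeR adjusted p = 0.186). Camk2b also had libraries 4 and 5 lowest and library 6 next, with a fitted log2 change of -0.58 (edgeR adjusted p = 0.133; DESeq2 adjusted p = 0.0236). The CaMKII genes had separate groups but with library 6 nearest to the controls, whereas library 6 was the lowest library for Nrgn.

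**Figure D2:**
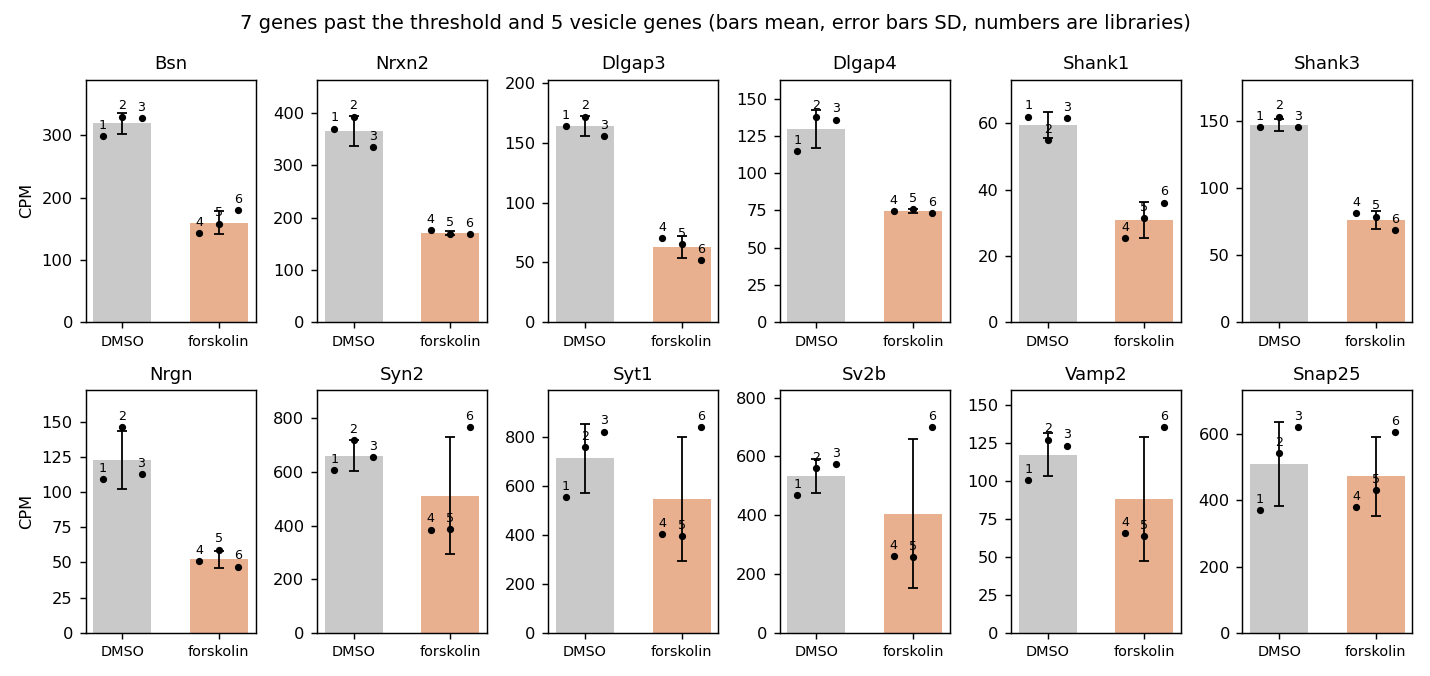
CPM of the 7 genes with an adjusted p under 0.05 and of 5 presynaptic genes chosen for contrast after their values were seen. Bars are means of 3 libraries, error bars are SD, and each point is a library with its number. For Snap25, libraries 4 and 5 also lie within the DMSO range. In the 7 genes library 6 lies with libraries 4 and 5, at 47.1 CPM for Nrgn, and in Syn2, Syt1, Sv2b, Vamp2 and Snap25 it lies with the DMSO libraries or above them, at 699 CPM for Sv2b.

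The presynaptic and postsynaptic sets differed little in their median and more in how library 6 behaved. The median fitted log2 fold change was -0.39 over the 28 presynaptic genes and -0.46 over the 20 postsynaptic genes. Of the presynaptic genes 2 fell (7.14%), and of the postsynaptic genes 5 fell (25.0%), beside 1.34% of all tested genes. This gap depended on the setting. DESeq2 put 4 of 28 presynaptic and 8 of 20 postsynaptic genes lower, and RLE factors 2 and 4. Without library 6, edgeR put 20 of 28 and 14 of 20 lower, which are similar shares, and quality weights gave the same counts. With the GC trend removed (described below) and library 6 left out, the counts were 23 of 28 and 14 of 20. Against the DMSO mean, the presynaptic median was -0.78, -0.76 and 0.12 on the log2 scale in libraries 4, 5 and 6, and the postsynaptic median was -0.69, -0.58 and -0.22. In the DMSO libraries these medians stayed between -0.17 and 0.10. The postsynaptic median minus the presynaptic one was 0.10, 0.18 and -0.33 in libraries 4, 5 and 6, beside 0.07, -0.07 and 0.01 with DMSO, so that it had no common sign with forskolin. No test was made between the sets, whose members were chosen with results known.

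Counted gene by gene, library 4 lay below all DMSO libraries for 23 of 28 presynaptic and 17 of 20 postsynaptic genes, where 38.1% of all tested genes did. Library 5 did so for 22 and 17 of them, against 39.3% of tested genes. Library 6 did so for 8 presynaptic and 12 postsynaptic genes, against 35.3% of tested genes. Library 6 was above all DMSO libraries for 12 presynaptic and 5 postsynaptic genes, where 29.5% of tested genes were. In all, 19 of the 48 genes had all 3 forskolin libraries below all DMSO libraries (16.2% of tested genes), 2 had them above (10.3%), and 19 were below in libraries 4 and 5 but not in library 6 (16.3%). Of the last 19, 14 were presynaptic and 5 postsynaptic.

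**Figure D3:**
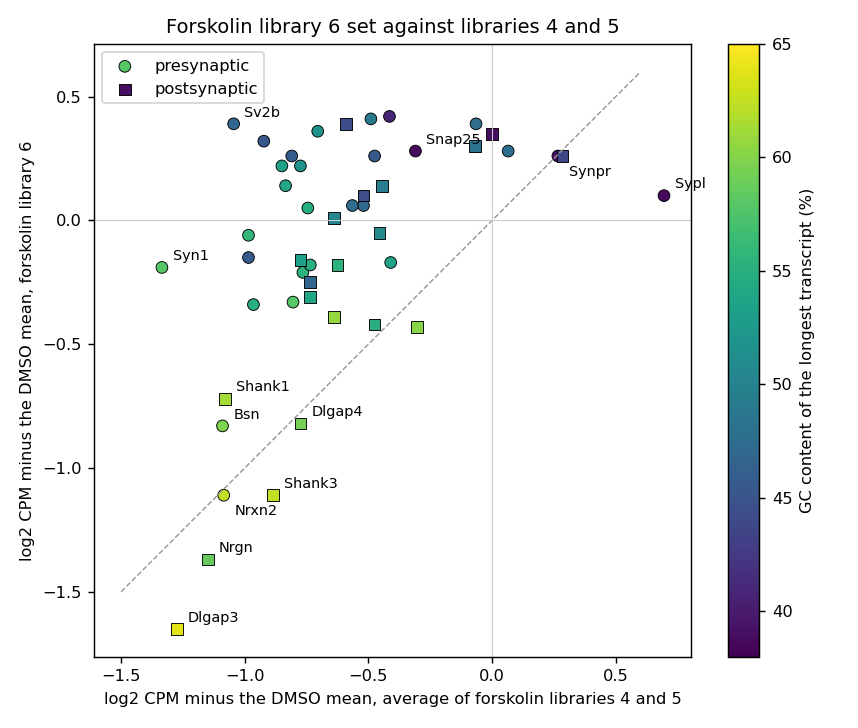
Each point is a gene (circles presynaptic, squares postsynaptic), placed by its log2 CPM minus the DMSO mean, averaged over libraries 4 and 5 (horizontal axis) and in library 6 (vertical axis); colour is the GC content of the longest transcript and the dashed line marks equal values. The 7 fallen genes lie near the line at the lower left with GC contents of 58.6 to 63.9%, and most others lie above it.

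The medians of the neuron markers were low in libraries 4 and 5, as those of the synaptic genes were. Their median log2 ratio was -0.82, -0.71 and -0.09 in libraries 4, 5 and 6, beside -0.74, -0.64 and 0.03 for the 48 members. Of the 16 neuron markers, 15, 12 and 8 lay below all DMSO libraries in libraries 4, 5 and 6, Rbfox3 and Tubb3 among the last 8. The medians of the microglia markers were 3.86, 4.89 and -0.12, those of the oligodendrocyte lineage 1.36, 0.93 and -0.62, and those of the astrocyte markers 0.18, -0.01 and -0.11. Fibroblast and vascular markers had medians of 0.97, 0.06 and -0.57, against 0.50, -0.20 and -0.39 with DMSO, and 8 of the 11 tested lay above all DMSO libraries in library 4 but 1 in library 5. When library sizes were rescaled to the neuron markers, the median log2 fold change of the presynaptic set became 0.02 and that of the postsynaptic set 0.01, while that of all tested genes moved to 0.51. On that scale edgeR called 0 genes, with 5380 of all genes and 13 of the 48 at an unadjusted p under 0.05. Dlgap3 and Nrgn had the most negative values of the members there, at -0.87 and -0.72 (edgeR adjusted p = 0.108 and 0.113). With library 6 also left out, a combination chosen after the data were seen, 4 members were called lower (Bsn, Dlgap3, Nrgn and Syn1) and 7 higher (Sypl, Synpr, Sv2c, Nrxn3, Nlgn1, Dlg1 and Gphn). On that scale 0.844% of tested genes were lower and 52.7% higher.

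**Figure D4:**
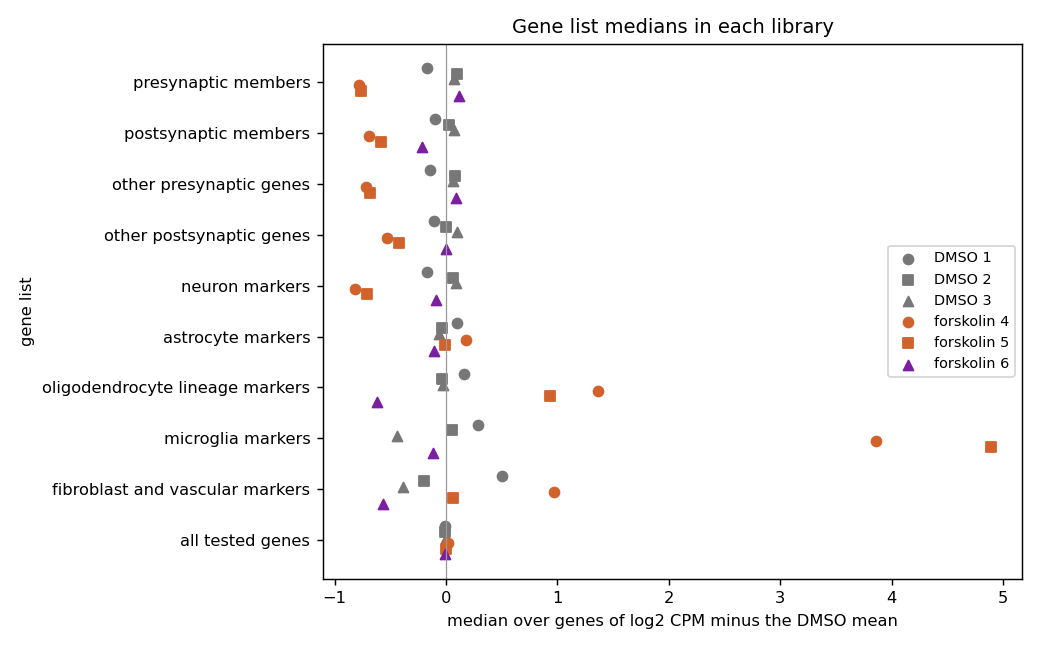
Median over the genes of each list of log2 CPM minus the DMSO mean (horizontal axis), one point per library, with DMSO libraries in grey, forskolin libraries 4 and 5 in orange and library 6 in purple. Synaptic and neuron lists sit between -0.82 and -0.42 in libraries 4 and 5, where microglia markers sit at 3.86 and 4.89, and between -0.22 and 0.12 in library 6.

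The 7 fallen genes shared a feature of their sequence, a high share of G and C. Their longest annotated transcripts held 58.6 to 63.9% GC with a median of 61.4%, against 38.7 to 60.7% and a median of 49.3% for the other 41 members. The GC content of all 15769 tested genes with a value had a median of 49.5%. Spearman's coefficient between GC content and the fitted change was -0.80 across the 48 genes and -0.51 across the 15769. These coefficients are across genes that share the same 6 libraries, so they carry no p-value. By library, the correlation of the log2 ratio to the DMSO mean with GC content over the 48 genes was -0.56, -0.61 and -0.81 in libraries 4, 5 and 6, and 0.42, 0.24 and -0.73 in DMSO libraries 1, 2 and 3.

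Genes of the same family differ in this feature, as the last 150 coding bases of Bsn beside Pclo and of Nlgn2 beside Nlgn1 show. They are printed 5′ to 3′ and end with the stop codon, and G and C are in capitals. The coordinates are of GRCm38 in the GENCODE M21 annotation: chr9:108103678-108104052 on the minus strand for Bsn (coding exons 9 and 10 with the intron between them), chr5:14857041-14858886 on the plus strand for Pclo (coding exons 24 and 25 with the intron between them), chr11:69825203-69825352 on the minus strand for Nlgn2 (coding exon 7) and chr3:25433638-25433787 on the minus strand for Nlgn1 (coding exon 6).
Bsn: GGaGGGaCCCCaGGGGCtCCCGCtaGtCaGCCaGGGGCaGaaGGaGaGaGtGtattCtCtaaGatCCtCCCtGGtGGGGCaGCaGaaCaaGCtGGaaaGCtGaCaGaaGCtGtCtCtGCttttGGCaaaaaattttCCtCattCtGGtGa
Pclo: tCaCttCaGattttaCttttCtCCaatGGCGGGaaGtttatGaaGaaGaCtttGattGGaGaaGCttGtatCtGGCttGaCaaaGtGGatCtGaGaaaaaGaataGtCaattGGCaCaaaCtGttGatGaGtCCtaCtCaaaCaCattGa
Nlgn2: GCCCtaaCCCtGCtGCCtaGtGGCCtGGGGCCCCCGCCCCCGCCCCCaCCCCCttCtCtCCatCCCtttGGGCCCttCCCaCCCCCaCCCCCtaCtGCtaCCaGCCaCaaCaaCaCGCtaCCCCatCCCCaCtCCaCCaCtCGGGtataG
Nlgn1: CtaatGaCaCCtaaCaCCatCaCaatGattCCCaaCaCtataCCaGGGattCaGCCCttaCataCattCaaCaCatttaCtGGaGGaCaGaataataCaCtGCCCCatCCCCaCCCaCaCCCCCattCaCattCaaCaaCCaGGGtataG
G and C made up 81 of the 150 bases in Bsn and 57 in Pclo, and 102 in Nlgn2 and 68 in Nlgn1. Over the whole longest transcript the values were 59.8 and 45.4% for Bsn and Pclo, and 60.7 and 38.9% for Nlgn2 and Nlgn1.

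Grouped by GC content, with limits chosen after the values were seen, 9 members had 58% or more, and 7 of these 9 fell. Among all tested genes in that range 10.7% (162 of 1512) were lower. None of the 39 members under 58% passed, in a range where calls were rare among all tested genes too (1.78% from 55 to 58%, 0.377% from 50 to 55%, 0 from 45 to 50% and 0.0241% under 45%). The median log2 ratio of the 9 GC-rich members was -1.06, -0.93 and -0.83 in libraries 4, 5 and 6, beside -0.35, -0.47 and -0.72 for all tested genes of that GC range. For the 8 members under 45% it was -0.28, -0.02 and 0.27, beside 0.30, 0.42 and 0.25 for all tested genes of that range. In these 2 ranges the members' median in library 6 was thus nearer to that of all genes of like GC content than in libraries 4 and 5, where it lay below them.

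**Figure D5:**
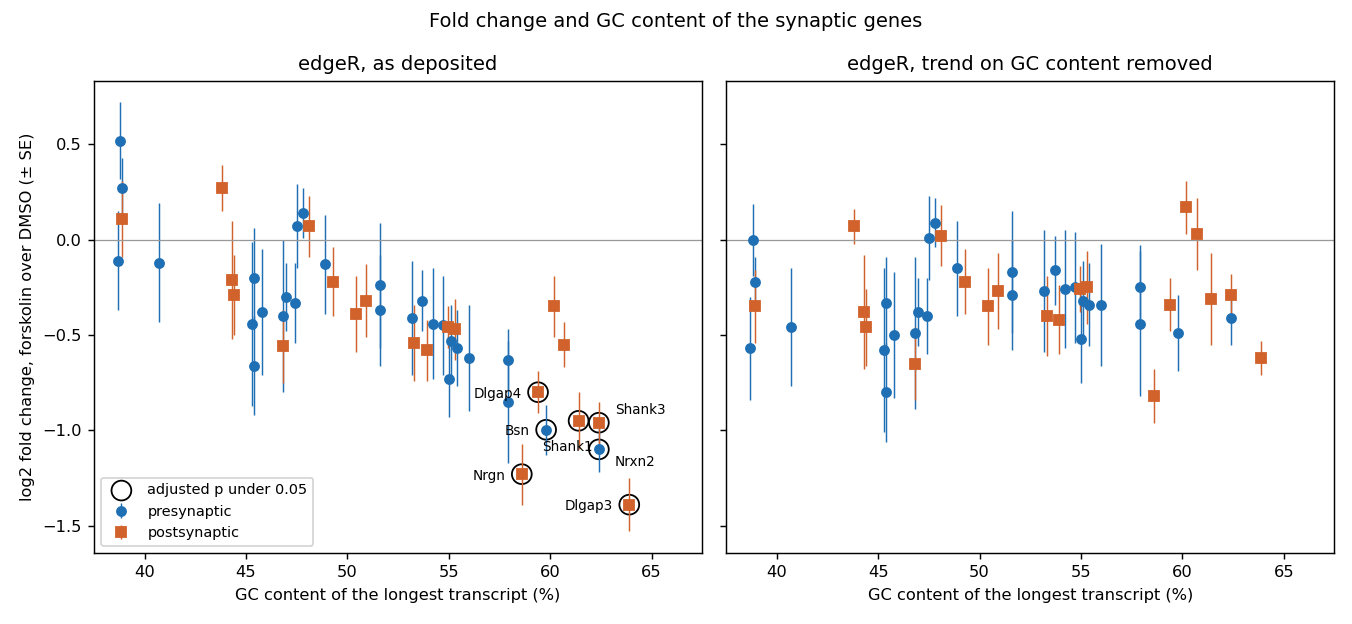
Log2 fold change of each gene with its SE against the GC content of its longest transcript, from edgeR on the counts as deposited (left) and after removal of the GC trend within libraries (right); circles are presynaptic and squares postsynaptic, and rings mark an adjusted p under 0.05. The slope on the left, from Sypl at 0.52 to Dlgap3 at -1.39, is absent on the right, where most genes stay below 0.

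With the GC trend taken out of every library, edgeR called 0 members and 0 genes in all, with 1948 of all genes and 7 members at an unadjusted p under 0.05. Spearman's coefficient over the 48 genes was then 0.06. The medians were -0.33 for the presynaptic set and -0.32 for the postsynaptic set, and 0.01 over all tested genes. Nrgn then had the most negative value of the 48 (log2 fold change -0.82, edgeR adjusted p = 0.191), with Syp at -0.80 (0.355), Dlg4 at -0.65 (0.330) and Dlgap3 at -0.62 (0.171). Values of Nrxn2 and Shank3 shrank to -0.41 and -0.29. With library 6 left out as well, 37 members were lower and none higher (16.0% of tested genes each way), all 7 fallen genes among them.

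The ratio of a gene to another within a library does not depend on depth, on scaling or on a factor common to both genes. In each of the 13 roles with more than 1 member, the member richest in GC was divided by the poorest, a choice made after the data were seen. Not all pairs are close relatives: Stx1a and Snap25, and Nrgn and Camk2a, share only a role. In 11 of the 13 the ratio was lower in all 3 forskolin libraries than in any DMSO library and in none was it higher. Over all pairs of tested genes at least 5 points of GC apart, 28.7% were lower in that way and 1.71% higher. The members' pairs were picked for the widest GC gap in a role, so the shares are not matched for GC gap and nothing is read from their difference. The ratio of Bsn to Pclo was 2.61, 2.63 and 1.93 with DMSO, and 1.65, 1.45 and 1.11 with forskolin. Nrxn2 to Nrxn3 stood at 8.53, 6.30 and 4.53 with DMSO, and at 3.06, 3.10 and 2.20 with forskolin. For Dlgap3 to Dlgap1 it was 0.812, 0.786 and 0.546, and 0.440, 0.360 and 0.232. In each of these 3 pairs the groups were separate, and DMSO library 3 was nearest to the treated libraries. The ratios of Sv2a to Sv2b and of Homer3 to Homer2 overlapped between the groups. An exact two-sided permutation test gave p = 0.1 for each of the 11, the smallest that 3 against 3 libraries allow, and p = 0.900 for the other two, with adjusted values of 0.118 and 0.900 over the 13 ratios. None passed 0.05, which the design cannot reach, and since the pairs were chosen with the relation to GC content known, the p-values support nothing here. DMSO library 3 had the lowest ratio of the 3 DMSO libraries in 11 of the 13 roles, and library 6 the lowest of the forskolin libraries in 10.

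Further synaptic genes were taken from lists that hold no member. Of 38 tested presynaptic genes outside the members, 1 fell (2.63%, beside 1.34% of all tested genes): Syt3, a further synaptotagmin, had 53.2, 60.1 and 57.8 CPM with DMSO, and 30.6, 25.3 and 36.0 CPM with forskolin (log2 fold change -0.90 ± 0.15 (SE), edgeR adjusted p = 0.0443). Of 39 tested postsynaptic genes outside the members, 6 fell (15.4%) and none rose. Cacng8, an auxiliary subunit of AMPA receptors, had 47.4, 45.2 and 42.9 CPM with DMSO, and 26.2, 25.2 and 25.4 CPM with forskolin (log2 fold change -0.82 ± 0.10 (SE), edgeR adjusted p = 0.0277). Agap2 (-0.83, edgeR adjusted p = 0.0368), the adhesion gene Lrrtm1 (-0.65, 0.0378) and Ppp1r9b, which encodes spinophilin (-0.83, 0.0381), fell by similar amounts. With the GC trend removed Cacng8 stood at 0.06, Agap2 at -0.10, Ppp1r9b at -0.14, Lrrtm1 at -0.46 and Syt3 at -0.43. The medians of the 2 lists were -0.72, -0.68 and 0.09 (presynaptic) and -0.53, -0.42 and -0.0042 (postsynaptic) in libraries 4, 5 and 6.

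Levels differed widely between members before any treatment. On a scale of CPM per kb of the longest transcript, in the DMSO libraries, Rab3a was the highest at 236 ± 16.7 (SD, n = 3), followed by Syp at 219 ± 22.9 (SD, n = 3) and by Syn2 at 171 ± 14.7 (SD, n = 3). Camk2b, at 155 ± 7.76, was the highest postsynaptic gene (SD, n = 3). The lowest was Syn3 at 0.743 ± 0.209 (SD, n = 3). Of the fallen genes, Nrgn stood highest on this scale at 84.4 ± 14.3 (SD, n = 3) and Shank1 lowest at 6.06 ± 0.402 (SD, n = 3), so the fallen genes were neither the most nor the least abundant. None of the 48 genes is among the 132 of the authors' deposited table, whose smallest log2 fold change is 1.501, above the highest member value here (0.52 for Sypl), so their absence carries no further information.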

How the data were processed

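RNA was extracted with Trizol and chloroform and sequenced on libraries made by Illumina protocols, per the labels' protocols. The authors deposited whole-number counts per gene symbol with 1 column per library; Salmon, DESeq and the build GRCm38 are named in the submitters' processing notes, without their role, and the strand setting and annotation are not given in the sources used here, so reads of overlapping antisense genes cannot be told apart. If the counts are Salmon estimates, their rounding and any split between paralogs came before deposit. The authors' deposited table of log2 fold changes was used only to look for members.

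Low genes were dropped by filterByExpr of edgeR at its defaults (10 counts, 15 in total), and the rest scaled by TMM factors and tested with glmQLFit and glmQLFTest on group alone, with Benjamini-Hochberg adjustment over 16233 genes and a threshold of 0.05 (R 4.3.3, edgeR 4.0.16, limma 3.58.1, DESeq2 1.42.0). SE is the absolute log2 fold change over the square root of F. Log2 CPM used a prior count of 2. GC content and length are of the longest GENCODE M21 transcript by symbol (97.1% of tested genes). The GC trend was a lowess fit (span 0.3) of each library's log2 ratio, removed as an offset. The members, lists and rules were chosen with earlier results of these data known. Values by library are given for members past the threshold and for the highest and lowest fold change of each role, and up to 4 genes past the threshold, smallest p first, are named from each list of other synaptic genes; other values by library were chosen after they were seen. At these depths the spread between libraries, rather than counting error, sets the precision of all but the least abundant members. Alternatives were DESeq2, limma-voom with and without library quality weights, other scaling factors, library size alone, rescaling to neuron markers, other low-count filters, GC correction, and leaving out each library.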

Additional observations from a re-analysis of the deposited data

How the results depend on the processing

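No paired analysis was possible because numbers 1 to 3 belong to DMSO and 4 to 6 to forskolin, and no number occurs in both. Over all genes edgeR called 217 lower and 28 higher. DESeq2 called 979 and 796 (44.8% of its calls higher, against 11.4%), quality weights 3392 and 3403, RLE factors 113 lower, upper-quartile factors 83 lower, and no low-count filter 46 higher. With the GC trend removed, or after scaling to neuron markers, 0 were lower and 0 higher. The GC trend removed without library 6 gave 2709 and 2709, and neuron scaling without library 6 gave 143 and 8924. Of the members, 12 were lower by DESeq2, 34 lower and 2 higher by quality weights, 37 lower with the GC trend removed without library 6, 4 lower and 7 higher by neuron scaling without library 6, and 0 with either correction on all libraries. Leaving out 1 library, all genes ranged from 0 to 2902 lower and from 0 to 2796 higher, and members from 0 to 34 lower and from 0 to 1 higher, the high ends without library 6 and 0 without any other. Where edgeR called 0 on 5 libraries, 1945 to 3216 genes had an unadjusted p under 0.05. The presynaptic median of -0.39 was -0.77 with quality weights, 0.02 after neuron scaling and -0.79 to -0.20 leaving out 1 library. The postsynaptic median of -0.46 was 0.01 after neuron scaling, 0.03 after neuron scaling without library 6 and -0.65 to -0.40 leaving out 1 library. Their difference, postsynaptic minus presynaptic, of -0.07 was 0.16 with quality weights, 0.13 after neuron scaling without library 6 and -0.23 to 0.13 leaving out 1 library. The cause of these moves was not tested.

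Of the members, direction turned after scaling to neuron markers in 17: Syn2 (0.04), Syt1 (0.03), Syt2 (0.16), Syt4 (0.33), Snap25 (0.35), Vamp1 (0.14), Cplx2 (0.15), Rims1 (0.11), Rims2 (0.29), Pclo (0.24), Nlgn3 (0.22), Dlg2 (0.21), Dlg3 (0.05), Dlgap1 (0.15), Shank2 (0.03), Homer2 (0.16) and Homer3 (0.14). Neuron scaling without library 6 turned 16: Syt4 (0.23), Snap25 (0.35), Vamp1 (0.14), Cplx2 (0.25), Rims1 (0.10), Rims2 (0.17), Pclo (0.18), Nlgn2 (0.02), Nlgn3 (0.21), Dlg2 (0.06), Dlg3 (0.02), Dlgap1 (0.20), Dlgap2 (0.04), Shank2 (0.18), Homer2 (0.14) and Homer3 (0.35). Removing the GC trend turned Sypl (-0.00013), Synpr (-0.22), Nlgn1 (-0.35), Nlgn2 (0.03) and Homer3 (0.17), and without library 6 also Synpr (-0.33), Nrxn3 (-0.16), Nlgn1 (-0.60), Homer3 (0.09) and Gphn (-0.11). Quality weights turned Nrxn3 (-0.08) and Gphn (-0.03), and library size alone did so too (-0.02 and -0.04). Leaving out 1 library turned Syt2, Syt4, Snap25, Rims2, Nrxn3, Nlgn1 and Gphn, none of them called on all 6 libraries: Syt2 from -0.69 to 0.07, Syt4 from -0.48 to 0.08, Snap25 from -0.35 to 0.04, Rims2 from -0.51 to 0.05, Nrxn3 from -0.11 to 0.24, Nlgn1 from -0.03 to 0.29 and Gphn from -0.08 to 0.20. The 7 fallen genes kept their direction under all of these alternatives. Counting error limits Syn3 most, with 64 to 144 counts per library.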
